A study of Mus musculus with 5 samples.

Results

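Contacts of the Dppa2/4 domain with chromosomes other than its own (contacts in trans) were described over 18 mouse autosomes, chromosomes 1 to 15 and 17 to 19. The autosomes were divided into 1-Mb bins from position 3 Mb onward in mm10, and a bin was kept when it held at least 100 windows of 5 kb. This gave 2310 bins of the 2738 bins of the deposited table. No measured value entered the choice, although earlier results of these data were known when it was made. The bait lies on chromosome 16, which was set aside.

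The series asked about cis elements that control DNA replication, and its 4C-seq bait sits in the Dppa2/4 domain of mouse embryonic stem cells. Contacts in trans were present in a single deposited table, which holds clones A6 and E2 of a hybrid line between a CAST and a 129 genome, grown in DMEM with 2i plus LIF. Both clones carry CRISPR-mediated deletions at the same 3 intervals of chromosome 16, from 48308399 to 48311882, from 48396806 to 48437301 and from 48581359 to 48620367. Over the 14 windows of 5 kb wholly inside the last 2 intervals, the 129 columns held 7 reads in A6 and 13 in E2, against 9880 and 20365 in the CAST columns. The first interval is shorter than a window and was not checked. Each line is 1 clone, an unedited hybrid line was not analysed here, and 4C holds no expression values against which the embryonic stem cell label could be checked. The values therefore compare the 129 with the CAST column of the same 2 clones. The p-values per bin and per chromosome rest on the spread of the 129 minus CAST difference between these clones. Much of this spread is pooled over bins or over chromosomes.

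In 4C, chromatin is crosslinked, cut and ligated, and the fragments ligated to 1 chosen bait are amplified and sequenced. Per length of DNA, ligations of a bait are most frequent on its own chromosome, because each chromosome occupies a territory of its own in the nucleus. Contacts between chromosomes are rarer, and in genome-wide maps active, gene-rich chromatin meets active chromatin of other chromosomes more often than gene-poor chromatin (the A and B compartments). HindIII, the first enzyme used here, cuts at AAGCTT, so only fragments that end at this site can be ligated to the bait.

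The sequences of the bait primers are shown because every contact was read from them. The labels list the following pair for both clones.
Bait forward primer: tttgggattttggagtgaagc
Bait reverse primer: ctgctggacttgtcaactgaa
The following promoters carry 1 AAGCTT site each, in capitals, and lie in windows with reads in all 4 columns. They run from 250 bases before to 50 bases after the annotated gene start, on the strand of the gene, and come from RefSeq on GRCm38.p6, the same build as mm10. Rpl37 encodes a protein of the large ribosomal subunit and lies in a bin at or above the 90th percentile of every column. Nr5a2 encodes a nuclear receptor of pluripotent cells, and Aco1 encodes the cytosolic aconitase that also regulates iron metabolism.
Rpl37, chr15:5116363-5116662, plus strand: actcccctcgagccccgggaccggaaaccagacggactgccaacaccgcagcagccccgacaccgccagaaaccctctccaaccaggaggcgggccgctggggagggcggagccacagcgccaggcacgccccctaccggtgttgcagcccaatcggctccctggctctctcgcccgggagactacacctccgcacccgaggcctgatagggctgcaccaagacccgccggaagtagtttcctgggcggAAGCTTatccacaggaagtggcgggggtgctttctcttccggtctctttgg
Nr5a2, chr1:136960399-136960698, minus strand: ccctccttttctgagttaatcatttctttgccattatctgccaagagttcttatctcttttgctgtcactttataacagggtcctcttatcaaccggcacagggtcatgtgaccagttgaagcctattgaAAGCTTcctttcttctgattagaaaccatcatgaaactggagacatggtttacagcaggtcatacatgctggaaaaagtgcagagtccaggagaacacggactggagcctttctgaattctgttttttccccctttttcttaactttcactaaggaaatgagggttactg
Aco1, chr4:40143015-40143314, plus strand: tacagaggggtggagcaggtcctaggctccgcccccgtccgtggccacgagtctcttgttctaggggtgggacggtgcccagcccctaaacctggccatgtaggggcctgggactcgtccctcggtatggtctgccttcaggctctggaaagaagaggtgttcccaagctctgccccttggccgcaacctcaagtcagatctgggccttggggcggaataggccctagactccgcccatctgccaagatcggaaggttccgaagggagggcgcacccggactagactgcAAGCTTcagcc

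The window of 5 kb around the Rpl37 promoter held 117 reads in A6 and 67 in E2 in the 129 columns, against 20 and 124 in the CAST columns. The Nr5a2 window held 26 and 185 reads in the 129 columns, against 21 and 116 in the CAST columns. The Aco1 window held 1 and 5 reads in the 129 columns, against 217 and 194 in the CAST columns. At Rpl37 and Nr5a2 the columns overlapped, whereas at Aco1 both 129 columns were below both CAST columns.

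The site AAGCTT reads the same on both strands, and 7.48% of the 28522 promoters in the windows used here held it. Windows with such a promoter had reads in 10.8% of cases in A6 and 11.5% in E2 in the 129 columns, and in 7.11% and 7.36% in the CAST columns. Windows whose promoters all lacked the site, although the rest of the window may hold it, had reads in 6.10% and 6.29% of cases in the 129 columns, and in 4.26% and 4.33% in the CAST columns. In each of the 4 columns promoter windows with the site were thus the more often read. When such a window had reads, the median was 20 and 19 reads in the 129 columns and 20 in both CAST columns, against 18 and 16 reads in the 129 columns and 18 and 19 in the CAST columns without the site.

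The deposited values are RPM, reads scaled to the total of the column, as running means over 30 windows of 5 kb. When the running mean was undone, 100% of windows came out as whole reads within 0.01, so both RPM and reads are given. The recovered depth was 1937280 reads for A6 and 2397572 for E2 in the 129 columns, and 1311580 and 1603247 in the CAST columns. The RPM scale implies somewhat higher totals, 1960438 and 2423179 on 129 and 1321005 and 1613268 on CAST. The cause of this gap was not tested. Of the RPM, 75.8% in A6 and 75.2% in E2 lay on the 18 autosomes in the 129 columns, against 73.6% and 73.3% in the CAST columns. The mean difference was 2.01 percentage points, with both 129 columns above both CAST columns (exact two-sided permutation test, p = 0.333, the smallest that 2 against 2 columns allow). Per Mb the trans signal was 324 and 322 RPM in the 129 columns and 316 and 315 RPM in the CAST columns, whereas chromosome 16 had 2502 and 2567 RPM per Mb on 129 and 2477 and 2521 on CAST.

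The split between the columns was not the same on all chromosomes contacted, as chromosome X, which was no member, had few 129 reads. The 129 column held 7.21% of chromosome X reads for clone A6, with a 95% Wilson interval of 6.95 to 7.47%, and 7.67% for clone E2, with 7.42 to 7.92%, against 60.3% and 60.5% on the 18 autosomes and 60.0% and 60.5% on chromosome 16. Whether a column in trans stands for the allele of the captured fragment or of the bait is not given in the sources used here and was not tested, so 129 and CAST mean the deposited columns. Intervals cover counting error only, because copies of 1 molecule made by PCR cannot be recognised in these reads.

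The trans contacts lay in few windows and were uneven. Of 462116 windows, 7.21% in A6 and 7.48% in E2 had reads in the 129 columns, and 4.58% and 4.70% had reads in the CAST columns. A window with reads held a mean of 44.0 and 52.2 reads in the 129 columns and 45.6 and 54.2 in the CAST columns, while the medians were 15 and 14 on 129 and 19 in both clones on CAST. The 10% of read windows with the most reads held 48.99% and 50.1% of all trans reads in the 129 columns, and 45.8% and 46.1% in the CAST columns. A 1-Mb bin held a mean of 14.4 and 14.96 read windows per Mb on 129, and 9.17 and 9.40 on CAST.

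Which windows were read was shared between the clones and much less between the alleles. On 129, 28127 windows were read in both clones, which is 84.4% of the windows of A6 and 81.4% of those of E2. On CAST 19114 windows were shared, 90.3% of those of A6 and 88.0% of those of E2. Between the alleles, 5799 windows were read on both in A6 (17.4% of the 129 and 27.4% of the CAST windows) and 6479 in E2 (18.8% and 29.8%). Of the 55329 windows read in any column, 57.0% were read on 129 alone, 28.2% on CAST alone and 14.8% on both. Among windows of 1 clone read on both alleles with at least 10 reads, at least 90% of the reads were on 1 allele in 50.1% of 5310 windows in A6 and 57.7% of 5963 in E2. The 2 alleles were thus mostly read in different windows. The positions of readable SNPs were not used here, so their part in this was not tested.

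**Figure D1:**
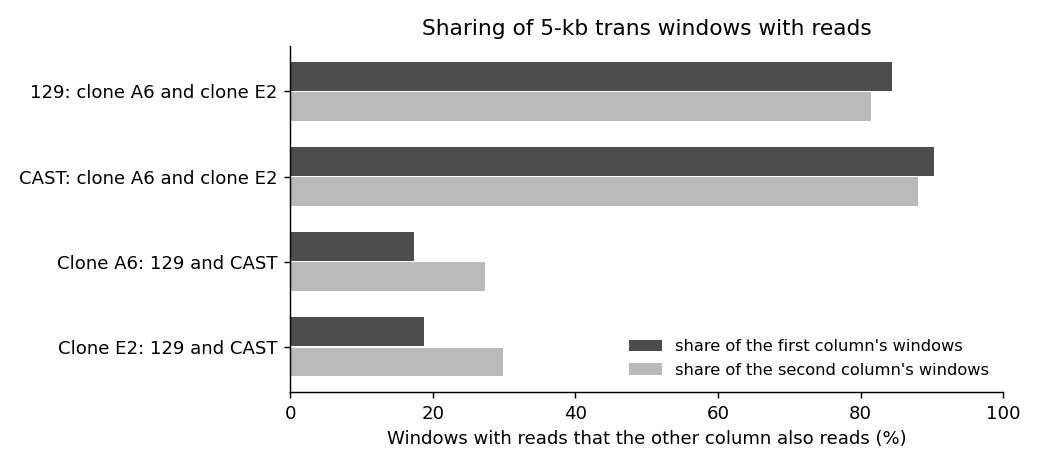
Bars give the percent of 5-kb trans windows with reads that the second column of a pair also reads, as a share of the windows of the first column (dark) and of the second column (light). Clones of 1 allele shared 81.4 to 90.3% of their windows, while the 129 and CAST columns of 1 clone shared 17.4 to 29.8%.

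How many reads a shared window held was less alike. Across windows read in both clones, Spearman's rho of the read counts was 0.48 on 129 and 0.41 on CAST. Windows read in 1 clone alone had a median of 1 read and held 0.55 to 0.69% of the reads of their column. Correlations across windows, bins and chromosomes are given as descriptions, since these share libraries, depth and readable SNPs.

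Chromosomes differed by less than 1.6-fold in signal per Mb. Chromosome 10 had 384 RPM per Mb in A6 and 373 in E2 on 129, and 391 and 371 on CAST. It ranked first or second in every column. Chromosome 11 had 359 and 368 RPM per Mb on 129 and 349 and 322 on CAST, and chromosome 19 had 353 and 337 on 129 and 357 and 336 on CAST. At the low end, chromosome 14 had 274 and 269 RPM per Mb on 129 and 252 and 272 on CAST, the lowest or second lowest in every column. Chromosome 17 had 292 and 275 on 129 and 283 and 303 on CAST. All values of chromosome 10 lay above all values of chromosome 14, with no overlap.

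The other chromosomes lay between these and mostly overlapped their neighbours in order. By the mean of the 4 columns, chromosome 18 (337 RPM per Mb), 13 (336), 9 (330), 6 (327), 5 (326), 1 (326), 15 (325) and 3 (323) followed chromosomes 10, 11 and 19. Chromosomes 8 (313), 4 (301), 7 (299), 2 (298) and 12 (297) came before chromosomes 17 and 14. The ratio of the highest to the lowest chromosome was 1.42 in A6 and 1.39 in E2 on 129, and 1.55 and 1.46 on CAST. The coefficient of variation over the 18 chromosomes was 9.44% and 8.35% on 129 and 10.3% and 9.26% on CAST.

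The chromosome levels went with how many windows were read, and little with length or genes. Across the 18 chromosomes Spearman's rho between signal and read windows per Mb was 0.89 in A6 and 0.76 in E2 on 129, and 0.94 and 0.71 on CAST. With chromosome length rho was between -0.37 and 0.02, and with protein-coding gene starts per Mb between -0.20 and 0.11. Chromosome 7, the chromosome with the most gene starts per Mb (14.2), ranked 12 and 14 on 129 and 17 and 16 on CAST. Chromosome 11, with 13.5 starts per Mb, ranked 3 and 2 on 129 and 4 and 9 on CAST. The clones ordered the chromosomes with a rho of 0.70 on 129 and 0.65 on CAST.

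**Figure D2:**
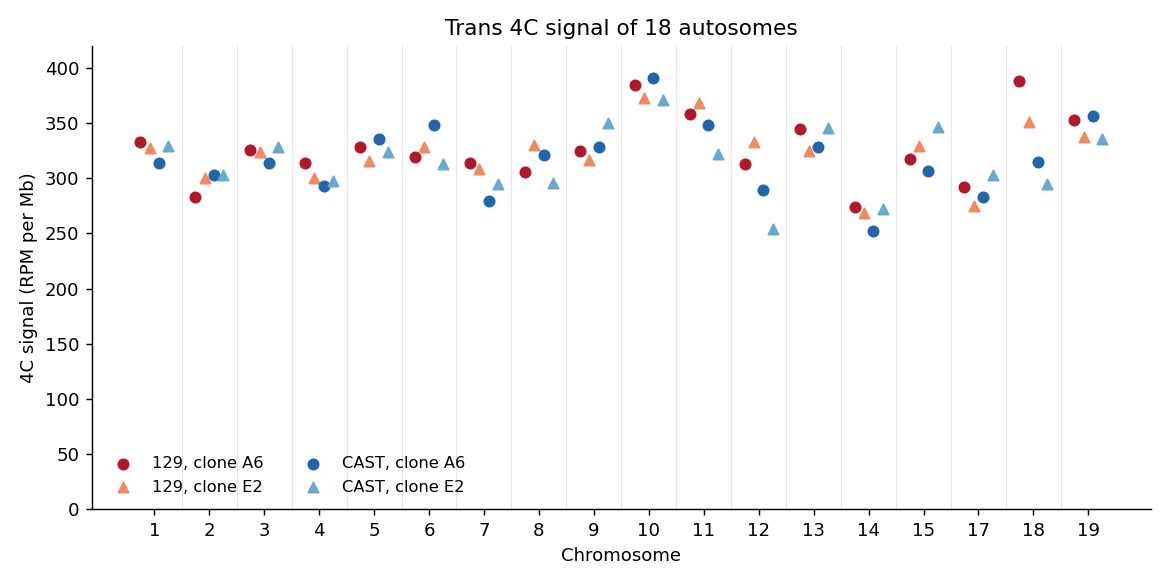
Points give trans 4C signal in RPM per Mb for each of 18 autosomes, with 129 columns left of CAST columns and circles for clone A6, triangles for clone E2. Chromosome 10 sits between 371 and 391 and chromosome 14 between 252 and 274, and chromosomes 12 and 18 show both 129 points above both CAST points.

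Chromosomes 12 and 18 passed the test between alleles, 2 of 18 or 11.1%, both higher on 129. Chromosome 18 had 388 RPM per Mb in A6 and 351 in E2 on 129, against 315 and 295 on CAST (log2 difference 0.28, SE 0.07, adjusted p = 0.0158 in limma with the clone as a block). Chromosome 12 had 313 and 333 on 129, against 289 and 254 on CAST (log2 difference 0.25, SE 0.07, adjusted p = 0.0175). This SE is the same for each of the 18 chromosomes, because limma pooled their spread, and is not the spread of 1 chromosome. For chromosome 12 the 129 share of reads was 61.6% in A6 and 66.3% in E2, against 60.3% and 60.5% over the 18 autosomes. Its log2 difference was 0.11 without E2 and 0.39 without A6, and in A6 alone chromosomes 7 (0.17) and 14 (0.12), which were not called, had higher ones. For chromosome 18 it was 64.6% and 64.1%. In the windows that both alleles read, the chromosome 18 difference was 0.13 (adjusted p = 0.644 in limma), so its call was not kept there. The chromosome 12 difference there was 0.36 (adjusted p = 0.039). Chromosome 19 was also called there (0.46, adjusted p = 0.0116), though its difference in RPM per Mb was -0.003 (adjusted p = 0.961).

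Signal followed gene density in no simple order. A gene start is the lower coordinate of a protein-coding gene, since the annotation gives no strand. The 265 bins without a gene start had 306 ± 8 RPM per Mb on 129 and 281 ± 7 on CAST (SD, n = 2 clones). The 885 bins with 1 to 5 starts had 339 ± 1 on 129 and 330 ± 1 on CAST, and the 521 bins with 6 to 10 starts had 344 ± 7 and 342 ± 6. The 400 bins with 11 to 20 starts had 303 ± 10 and 312 ± 7, and the 239 bins with over 20 starts had 271 ± 13 and 252 ± 8. Bins with 6 to 10 starts were the highest by mean on both alleles, and the densest bins were the lowest.

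The ratio of gene-rich bins (11 or more starts, 639 bins) to gene-free bins was near 1. Its log2 was -0.04 in A6 and -0.11 in E2 on 129, and -0.01 and 0.09 on CAST. The means were -0.07 ± 0.04 on 129 and 0.04 ± 0.07 on CAST (SD, n = 2), and the difference was -0.12 (exact two-sided permutation test, p = 0.333, the smallest possible). Of the 17 chromosomes with enough bins of both kinds, 0 had a ratio above 1 in all 4 columns and 3 had one below 1 in all 4, and 14 were mixed. The 3 were chromosomes 5, 13 and 14. On chromosome 14 the log2 ratio was -0.40 and -0.63 on 129 and -0.50 and -0.17 on CAST. The ratio was not the same by every measure: in read windows it was -0.24 ± 0.01 on 129 and 0.01 ± 0.01 on CAST, and in reads per read window it was 0.16 ± 0.04 on 129 and 0.03 ± 0.08 on CAST.

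The drop in the densest bins was a drop in read windows. The log2 ratio of RPM of bins with over 20 starts to bins with 1 to 10 starts was -0.33 ± 0.08 on 129 and -0.41 ± 0.06 on CAST. In read windows it was -0.37 ± 0.01 and -0.38 ± 0.01, and in reads per read window it was 0.04 ± 0.07 and -0.03 ± 0.05. Where the densest bins were read at all, a window thus held about as many reads as elsewhere.

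**Figure D3:**
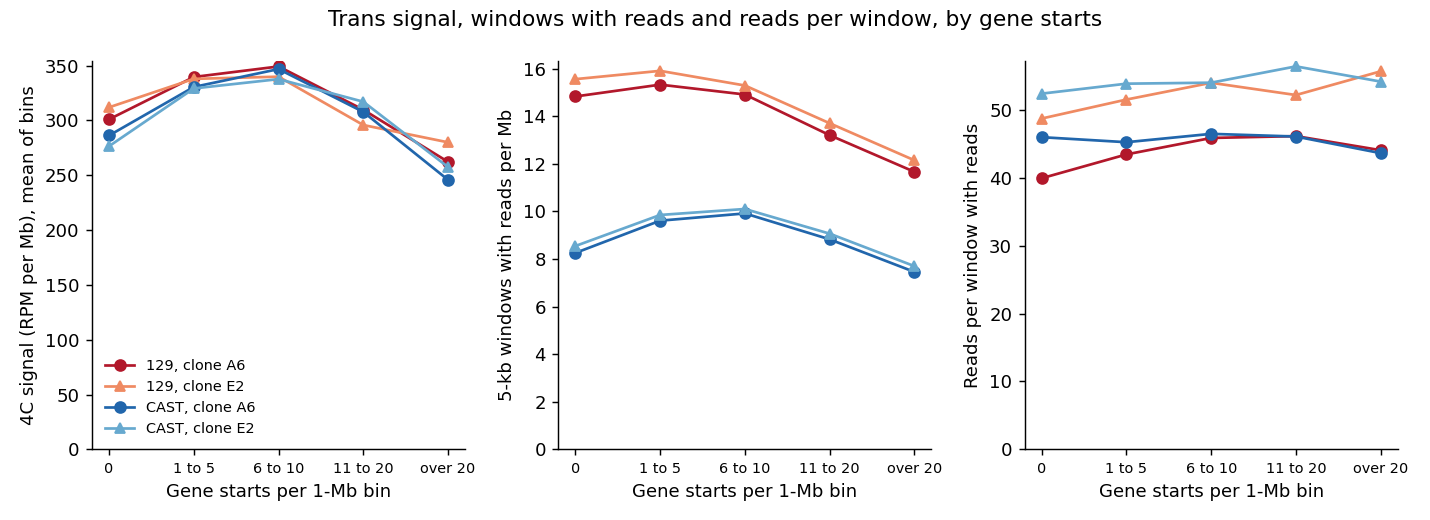
Lines join the 5 classes of 1-Mb bins by gene starts, for mean signal (RPM per Mb, left), 5-kb windows with reads per Mb (centre) and reads per window with reads (right), in the 4 columns. Signal peaks at 1 to 10 starts and falls to 246 to 280 RPM per Mb over 20 starts, read windows fall likewise, and reads per read window stay between 39.9 and 56.4.

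Part of the gene-rich bins counted as such only with their receptor or zinc finger genes. Olfactory and vomeronasal receptors detect odours and pheromones, and many zinc finger (Zfp) genes encode repressors of transposons. In 67 gene-rich bins fewer than 11 starts remained without these 3 families. Their signal was 223 and 225 RPM per Mb on 129 and 187 and 212 on CAST, a log2 ratio to gene-free bins of -0.43 and -0.47 on 129 and -0.61 and -0.38 on CAST. The other 572 gene-rich bins had log2 ratios of 0.00 and -0.07 on 129, and 0.05 and 0.14 on CAST. The 67 bins were low in each of the 4 columns, and the other 572 were close to gene-free bins. A bin could enter the 67 with few genes of these families, and the 572 may hold such genes too. Members of these families resemble each other in sequence, and their part in the reads that could be placed was not tested.

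Signal was lower near both ends of the chromosomes. Equal parts of each chromosome next to the centromere, in the middle and next to the telomere had 315 to 330 RPM per Mb on 129 and 301 to 325 on CAST, over both clones. The last 5 Mb had 267 and 298 on 129 and 248 and 279 on CAST, and the first 5 Mb from position 3 Mb had 285 in both clones on 129 and 288 and 294 on CAST, both below the mean of all bins in each column (324 and 322 on 129, and 316 and 315 on CAST).

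The clones ranked the 2310 bins in a similar way. Spearman's rho between A6 and E2 was 0.63 on 129 and 0.59 on CAST, whereas between 129 and CAST it was 0.38 in A6 and 0.34 in E2. For the number of read windows per bin rho between clones was 0.91 on 129 and 0.94 on CAST, and between alleles it was 0.54 in both clones. Within chromosomes rho between clones on 129 was between 0.43 (chromosome 18) and 0.79 (chromosome 15), and on CAST between 0.41 (chromosome 19) and 0.76 (chromosome 15). The median absolute log2 difference of a bin between clones was 0.56 on 129 and 0.71 on CAST, against a counting error of 0.081 and 0.10. In 84.5% of bins on 129 and 85.0% on CAST the clones differed by more than the counting interval, which leaves out the spread from PCR. A difference of over 2-fold between clones was found in 24.5% of bins on 129 and 35.0% on CAST.

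**Figure D4:**
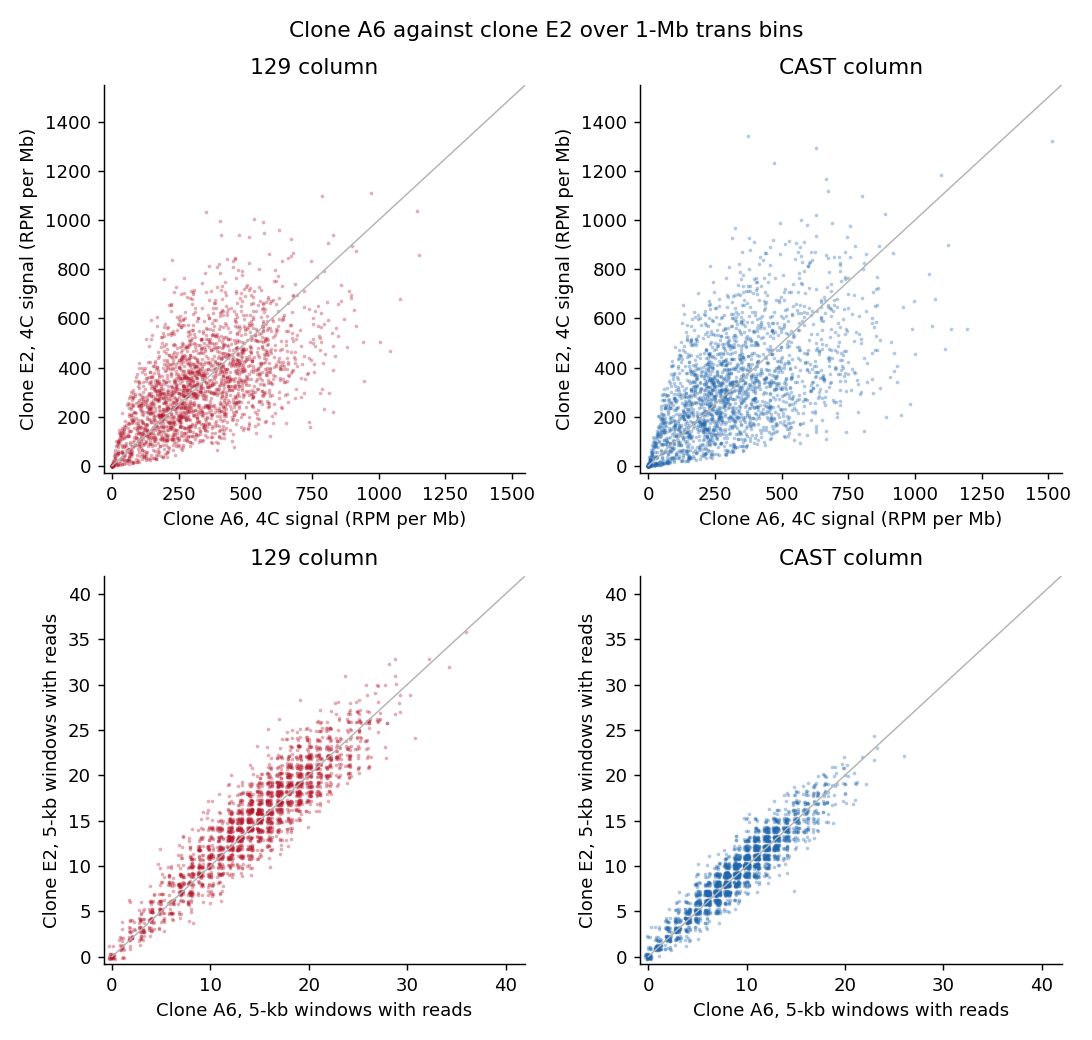
Each point is a 1-Mb trans bin, with clone A6 on the horizontal and clone E2 on the vertical axis, for signal (RPM per Mb, top) and 5-kb windows with reads (bottom, jittered), on 129 (left) and CAST (right), and the line marks equal values. Read windows lie close to the line (rho 0.91 and 0.94), and signal spreads widely around it (rho 0.63 and 0.59).

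Neighbouring bins were weakly alike. Between bins 1 Mb apart rho of the recovered reads was 0.22 in both clones on 129, and 0.18 in A6 and 0.15 in E2 on CAST. At 5 Mb it was 0.04 and 0.05 on 129 and 0.01 and 0.03 on CAST. For read windows it was 0.33 in both clones on 129, and 0.28 and 0.30 on CAST, at 1 Mb.

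Few bins were high throughout. High means at or above the 95th percentile of the column, which was 653 RPM per Mb in A6 and 660 in E2 on 129, and 710 and 708 on CAST, with 116 bins in each column. In both clones 29 bins were high on 129 (1.26%) and 28 on CAST (1.21%), or 25.0% of the list of each 129 column and 24.1% of that of each CAST column. A single bin was high in all 4 columns (0.0433%). At the 90th percentile 6 bins were high in all 4 (0.26%). These bins were chosen by their values, which are a description with no test.

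The bin high in all 4 columns lies on chromosome 15 from 55 to 56 Mb and holds 7 gene starts. It had 1152 RPM per Mb in A6 and 856 in E2 on 129, and 919 and 866 on CAST, which is 2.66 to 3.55 times the column mean. Its genes include Taf2, a subunit of the general transcription factor TFIID, Dscc1, which loads factors for sister chromatid cohesion, and Deptor, an inhibitor of mTOR. Col14a1, a collagen, and Mrpl13, a protein of the mitochondrial ribosome, also start in it. The signal came from 24 and 26 read windows on 129 and 16 in both clones on CAST, of which 4 were shared by all columns, and the top window held 13.1 to 27.3% of the reads.

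The other 5 bins each missed the higher threshold in 1 column. On chromosome 11 from 64 to 65 Mb, over Hs3st3a1, a heparan sulfate sulfotransferase, and Elac2, a tRNA-processing enzyme, the signal was 577 and 667 RPM per Mb on 129 and 1125 and 898 on CAST. On chromosome 3 from 157 to 158 Mb, over Zranb2, Ptger3, a prostaglandin receptor, and Cth, an enzyme of cysteine synthesis, it was 783 and 620 on 129 and 808 and 826 on CAST. On chromosome 9 from 49 to 50 Mb, over Zw10, a kinetochore gene, Drd2, a dopamine receptor, and Ncam1, a neural adhesion gene, it was 890 and 710 on 129 and 687 and 710 on CAST. Zw10, Drd2 and Ncam1 thus share a bin in which the 2 alleles lie close together. On chromosome 15 from 5 to 6 Mb, over Rpl37, whose promoter is printed above, Prkaa1, a subunit of the energy sensor AMPK, and Ptger4, it was 739 and 637 on 129 and 719 and 827 on CAST. On chromosome 2 from 169 to 170 Mb, over Tshz2, a zinc finger transcription factor, it was 593 and 661 on 129 and 841 and 708 on CAST. None of the 6 passed the test between alleles in limma (adjusted p between 0.494 and 0.908). They were chosen as high on both alleles, which limits the difference they can show, so this adds no support for likeness of the alleles.

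**Figure D5:**
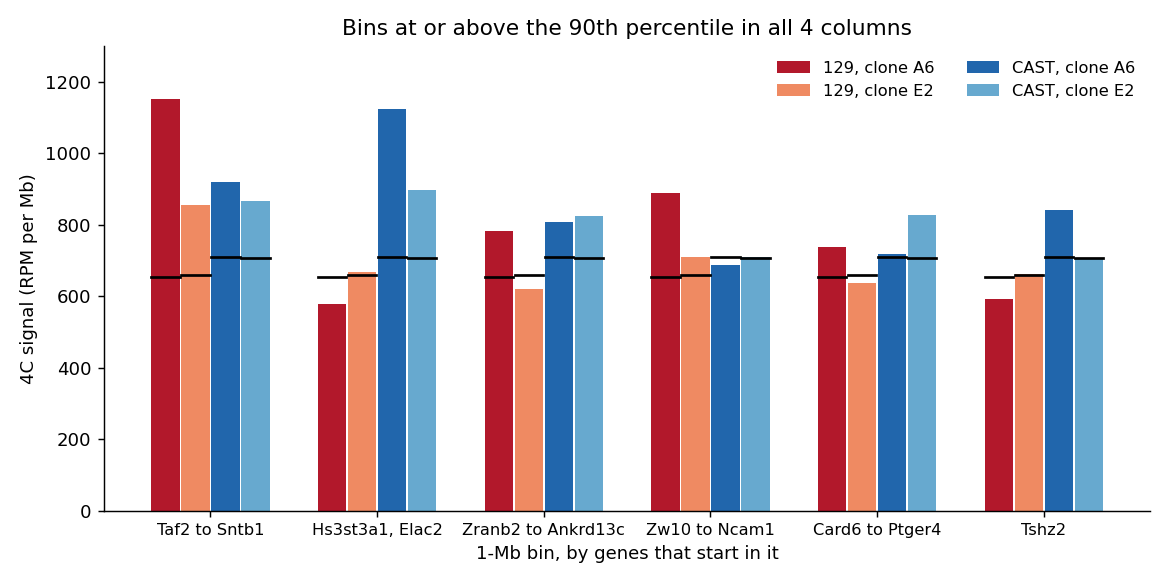
Bars give signal in RPM per Mb for the 6 bins at or above the 90th percentile in all 4 columns, with 129 bars left of CAST bars and a black line at the 95th percentile of each column. The bin from Taf2 to Sntb1 is above the line in all 4 columns, and each of the other 5 falls below it in 1.

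The 6 bins held 1 to 8 gene starts, so none was gene-free or gene-rich, against 11.5% gene-free and 27.7% gene-rich among all bins. They had 24.2 and 24.5 read windows per Mb on 129 and 16.3 and 16.5 on CAST, against 14.4 and 14.96 on 129 and 9.17 and 9.40 on CAST in all bins. The 6 were chosen by signal, so these read windows are a description with no test. So few bins cannot show a preference among gene classes. Bins at or above the 95th percentile in fewer columns could come close to the 90th in all 4. The bin on chromosome 15 from 7 to 8 Mb missed it only in A6 on 129, with 566 RPM per Mb against 576. The remaining bins at or above the 95th percentile in exactly 3 columns fell well short of the 90th in the other column. A bin on chromosome 10 from 125 to 126 Mb over Slc16a7 and Lrig3 had 720 and 448 RPM per Mb on 129 and 887 and 1023 on CAST, and its lowest percentile was 77.1. A bin on chromosome 11 from 7 to 8 Mb over Adcy1, Igfbp1 and Igfbp3 had 695 and 694 on 129 and 453 and 779 on CAST, with a lowest percentile of 76.4.

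Some bins were high in both clones of 1 allele and not in all 4 columns, and the following were chosen after their values were seen. On 129 a bin on chromosome 1 from 15 to 16 Mb over Kcnb2, Terf1, which binds telomeres, and Sbspon had 1144 and 1037 RPM per Mb, against 569 and 654 on CAST. A bin on chromosome 10 from 95 to 96 Mb over Socs2 and Ube2n had 972 and 1109 on 129, against 431 and 211 on CAST. On CAST a bin on chromosome 17 from 3 to 4 Mb, over Scaf8, Tiam2 and Tfb1m, had 225 and 397 on 129 and 1515 and 1322 on CAST. A bin on chromosome 4 from 57 to 58 Mb over Ptpn3 and Txn1, the gene of thioredoxin, had 530 and 405 on 129 and 1100 and 1182 on CAST.

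Bins on 1 side of the median in all columns were more common. Of the 2310 bins, 405 (17.5%) were above the column median in all 4 and 443 (19.2%) below it, each set on all 18 chromosomes. The bins above held 19.3 and 19.98 read windows per Mb on 129 and 13.3 and 13.6 on CAST, against 7.41 and 7.80 on 129 and 4.21 and 4.40 on CAST in the bins below. Both sets were sorted by signal, so these read windows are a description with no test. Over 20 gene starts were found in 4.20% of the bins above and 15.8% of the bins below, against 10.3% of all bins. From 1 to 10 starts were found in 70.4% and 52.1%, against 60.9% of all bins. No reads at all were found in 15 bins, which hold 232 gene starts. Of these, 52 were olfactory receptors, 48 vomeronasal receptors, 10 replication-dependent histone genes and 5 Zfp genes. All trans bins held 1067, 349, 63 and 382 genes of these families, of 19986 protein-coding genes on the 18 autosomes. A count of 0 allows up to 3 reads, which is 1.55 RPM in A6 and 1.25 in E2 on 129, and 2.29 and 1.87 on CAST.

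Between alleles 151 of 2275 bins differed (6.64%) in limma on log2(RPM per Mb + 31.7) with the clone as a block, and the median log2 difference of all bins was 0.06. Of these, 102 were higher on 129 (4.48%) and 49 lower (2.15%), each in the same direction in both clones. edgeR on the recovered reads called 81, of which 54 were among the 151, all in the same direction. With DESeq2 size factors in place of TMM, edgeR called 164, of which 103 were among the 151, again all in the same direction. With no filter on reads, limma called 0 of 2310 bins, with 397 at an unadjusted p under 0.05. Of the called bins 21.2% had 5 or fewer read windows on 1 allele over both clones, against 6.42% of all tested bins. Called bins lay on all 18 chromosomes, from 2.61% of those tested on chromosome 14 to 11.2% on chromosome 17.

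The bins with the highest log2 differences were nearly empty on CAST. On chromosome 2 from 149 to 150 Mb, over Cst10 and Syndig1, a synapse gene, the signal was 808 RPM per Mb in A6 and 666 in E2 on 129, against 56.8 and 22.6 on CAST (log2 difference 3.47, SE 0.52, adjusted p = 0.00031 in limma). On chromosome 2 from 134 to 135 Mb, over Hao1, a liver peroxisomal oxidase, and Plcb1, a phospholipase, it was 307 and 368 on 129, against 0.883 and 2.93 on CAST (3.46, adjusted p = 0.00031 in limma). On chromosome 12 from 3 to 4 Mb, over Dnmt3a, a de novo DNA methyltransferase, Asxl2 and Pomc, it was 316 and 365 on 129, against 4.54 and 4.34 on CAST (3.36, adjusted p = 0.00034 in limma). Here the CAST columns held 6 and 7 reads over the whole Mb. On chromosome 7 from 144 to 145 Mb, over Fgf3, Fgf4, Fgf15 and Ccnd1, the gene of cyclin D1, it was 160 and 417 on 129, against 3.03 and 1.86 on CAST (3.11, adjusted p = 0.000832 in limma). On chromosome 5 from 114 to 115 Mb, over Ung, which removes uracil from DNA, and Acacb, it was 524 and 427 on 129, against 24.2 and 30.6 on CAST (3.10, adjusted p = 0.000832 in limma).

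At the other end, signal on 129 was low. On chromosome 3 from 88 to 89 Mb, a dense bin with 35 gene starts over Mef2d, a muscle and neuron transcription factor, and Lmna, the lamin A gene, it was 14.1 and 2.85 RPM per Mb on 129, against 217 and 475 on CAST (log2 difference -3.16, adjusted p = 0.000832 in limma). On chromosome 8 from 5 to 6 Mb, over Slc10a2, the ileal bile acid transporter, it was 22.2 and 47.0 on 129, against 586 and 326 on CAST (-2.85, adjusted p = 0.00175). That bin held 11 and 10 read windows on 129 and 7 in both clones on CAST, so more windows were read in the columns with less signal. On chromosome 10 from 108 to 109 Mb, over Ppp1r12a, a myosin phosphatase subunit, Pawr and Syt1, a synaptic calcium sensor, it was 145 and 42.8 on 129, against 789 and 612 on CAST (-2.66, adjusted p = 0.00277). A gene-free bin on chromosome 9 from 93 to 94 Mb had 91.2 and 28.2 on 129, against 426 and 609 on CAST (-2.66, adjusted p = 0.00334). On chromosome 2 from 103 to 104 Mb, over Cat, the catalase gene, Elf5, an epithelial transcription factor, and Lmo2, it was 102 and 55.2 on 129, against 744 and 548 on CAST (-2.64, adjusted p = 0.00277). Over windows read on both alleles, edgeR no longer called the bins on chromosome 3 from 88 Mb (adjusted p = 0.237), on chromosome 9 from 93 Mb (0.102) and on chromosome 2 from 103 Mb (0.116), and gave no value for those on chromosome 2 from 134 Mb and chromosome 12 from 3 Mb. In all 10 named bins the 129 and CAST columns did not overlap. They were chosen for large differences in the same direction in both clones, so this adds no support.

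Genes of pluripotency, the state of embryonic stem cells, started in 27 trans bins. The medians of these bins were 413 RPM per Mb in A6 and 431 in E2 on 129, and 310 and 293 on CAST, against 301 and 304 on 129 and 285 and 288 on CAST over all bins. Of the 27 bins, 9 were above the median in all 4 columns and 3 below it, where all bins had 17.5% above and 19.2% below, and 1 of 26 tested differed between alleles, higher on 129, against 6.64% of all bins tested. That bin is the one over Fgf4 on chromosome 7. The highest bin of the list, on chromosome 1 from 136 to 137 Mb, holds Nr5a2 and Zfp281, and had 521 and 697 on 129 and 688 and 990 on CAST. Next was the bin on chromosome 15 from 7 to 8 Mb with Lifr, a receptor subunit for LIF, at 566 and 590 on 129 and 862 and 722 on CAST. The lowest bin of the list, that of Rex2 on chromosome 4 from 146 to 147 Mb, had no reads in any column. The core factors of the network, named here after their values were seen, were not all higher on the same allele. The bin of Pou5f1 on chromosome 17 from 35 to 36 Mb had 413 and 182 on 129 and 46.9 and 89.9 on CAST (adjusted p = 0.0669 in limma), that of Sox2 on chromosome 3 from 34 to 35 Mb had 255 and 359 on 129 and 684 and 558 on CAST (0.293), and that of Nanog, Dppa3 and Gdf3 in the 1-Mb bin from 122 Mb on chromosome 6 had 647 and 342 on 129 and 317 and 330 on CAST (0.634). In these 3 bins the columns of the alleles did not overlap, but none passed the test.

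Genes of the early embryonic programme that Dppa2 and Dppa4 activate started in 13 bins. Their medians were 310 and 205 RPM per Mb on 129 and 190 and 133 on CAST, against 301 and 304 on 129 and 285 and 288 on CAST over all bins. Of the 13, 3 bins were above the median in all 4 columns and 5 below, where all bins had 17.5% above and 19.2% below. The bin of Duxf3, a Dux gene that switches on this programme, on chromosome 10 from 58 to 59 Mb, had 563 and 526 on 129 and 558 and 633 on CAST. The bin of Sp110 on chromosome 1 from 85 to 86 Mb had 43.2 and 82.7 on 129 and 27.6 and 83.1 on CAST, and that of Zfp352 on chromosome 4 from 90 to 91 Mb had 59.2 and 153 on 129 and 3.03 and 11.2 on CAST. The Zfp352 bin was the 1 of 13 that differed between alleles, higher on 129 (log2 difference 1.75, adjusted p = 0.0429 in limma), against 6.64% of all bins tested.

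Hox genes, which pattern the body axis and are silenced by Polycomb in embryonic stem cells, started in 5 bins with none above or below the median in all 4 columns. The Hoxd bin on chromosome 2 from 74 to 75 Mb had 255 and 359 RPM per Mb on 129 and 597 and 622 on CAST, but did not pass the test, and the Hoxc bin on chromosome 15 from 102 to 103 Mb had 214 and 449 on 129 and 209 and 161 on CAST. The 4 bins of replication-dependent histone genes had medians of 56.1 and 22.5 on 129 and 92.6 and 91.1 on CAST. They split into the bin of H2bc13 on chromosome 13 from 21 to 22 Mb, with 364 and 307 on 129 and 252 and 281 on CAST, and 3 bins below the median in all 4 columns. The bin of H2ac21 on chromosome 3 from 96 to 97 Mb had no reads.

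Vomeronasal receptor genes started in 52 bins, 0 of them above and 25 below the median in all 4 columns, against 17.5% above and 19.2% below among all bins. Their medians were 189 and 208 RPM per Mb on 129 and 150 and 138 on CAST. The bins of Vmn1r119 and Vmn1r138 on chromosome 7, with 19 and 22 receptor genes, had no reads in any column, while the bin of the single gene Vmn1r1 on chromosome 1 had 250 and 297 on 129 and 447 and 747 on CAST. The 76 olfactory receptor bins had medians of 263 and 247 on 129 and 212 and 210 on CAST, with 6 above and 24 below the median throughout. The 183 Zfp bins had medians of 276 and 266 on 129 and 261 and 247 on CAST, with 30 above and 45 below. Between alleles 6 of 48 tested vomeronasal, 5 of 74 olfactory and 19 of 179 Zfp bins differed, against 6.64% of all bins tested.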

How the data were processed

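4C-seq was measured in 5 samples, of which the 2 hybrid clones, A6 and E2, were used. The inbred libraries were not used here, since their table holds no chromosome column. Per the labels' protocols, fixed chromatin was cut with HindIII, ligated and cut with DpnII, and per the submitters' processing notes Bowtie2 and mm10 were used, with the version not given in the sources used here. The authors deposited RPM per allele in windows of 5 kb as running means over 30 windows, per the file headers. The column not named CAST is read as 129, after the cas/129 label. The bait primers listed for the samples differ from those in the protocol text, and without a genome the bait position and HindIII fragments were not checked.

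From these values RPM per Mb was computed per 1-Mb bin, with at least 100 windows, and whole reads were recovered. No column of another series was present. Bins with at least 10 recovered reads in at least 2 of the 4 columns entered limma 3.58.1, run in R 4.3.3 (129 minus CAST, clone as a block because both columns come from the same cells, Benjamini-Hochberg adjustment, threshold 0.05). limma, edgeR 4.0.16 and DESeq2 1.42.0 size factors were also run as alternatives on other values, and fits were tested on simulated data. Single values were tested with exact permutation tests over the 4 columns, which do not pair the columns of a clone. Gene starts came from RefSeq on GRCm38.p6, and promoters, found for 79.5% of the 19986 genes, from its promoter table. The bins named were the 10 highest in all 4 columns (6 existed) and the 5 highest and 5 lowest allele differences that keep direction in both clones and in their own reads. Examples of gene lists lay in the bins with the highest and lowest geometric mean. The members and gene lists were chosen with earlier results of these data known.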

Additional observations from a re-analysis of the deposited data

Results flagged for a closer look

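Signal outside the measurement described above was found on chromosome X. The 129 column took 7.21% of reads there in clone A6 and 7.67% in clone E2, against 60.3% and 60.5% over the 18 autosomes. The reads numbered 2735 in A6 and 3375 in E2 on 129, against 35211 and 40637 on CAST. The labels give neither the sex of the line nor the alleles of its chromosome X, and the cause was not tested.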

How the results depend on the processing

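Between alleles, 151 bins were called, and other settings gave 0 with no filter on low bins (397 at an unadjusted p under 0.05), 81 with edgeR and TMM, 164 with edgeR and DESeq2 size factors, 1173 with read windows in place of RPM, 1018 with read windows centred on the column median and 319 of 2062 over windows read on both alleles with edgeR. Read windows move the median of all bins to 0.62, so most of the 1173 are higher on 129. Without the clone block, which pairs the columns of the same cells, 110 bins and 2 chromosomes were called. The bins on chromosome 8 at 5 Mb and on chromosome 9 at 93 Mb changed sign in read windows (0.52 and 0.12). For the 10 named bins and 2 chromosomes, 78 other values kept direction and side of the threshold, 20 kept direction alone, and 24 values without a clone, which have no test, kept direction. For chromosomes, 18 were called with read windows and 7 with centred read windows. The gene-rich to gene-free log2 ratio on 129 was -0.24 with read windows, -0.15 in 2-Mb bins, -0.022 without receptor and Zfp genes, -0.12 by medians, -0.18 with starts by strand and 0.16 in reads per read window. On CAST it was -0.040 in 2-Mb bins, 0.12 without receptor and Zfp genes and -0.093 with starts by strand. Its difference was -0.24 with read windows and 0.13 in reads per read window. The mean rho of clones, 0.61, was 0.93 with read windows and 0.65 in 2-Mb bins. Bins high in all columns numbered 6 at the 90th percentile, 0 at the 99th, 11 with read windows and 0 of 1918 in reads per read window, and 11 to 13 when a clone was left out. Centring, both-allele windows, starts by strand and reads per read window were chosen after seeing the data. Starts by strand use fewer genes, and the causes of the other shifts were not tested. Depth limits bins with few reads, where 3 reads are 1.25 to 2.29 RPM.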
